A study of Mus musculus with 4 samples.

Results

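The Tnfaip3 viewpoint was measured by circular chromosome conformation capture with sequencing (4C-seq) in mouse embryonic stem cells (ESC) and in RAW 264.7 cells, a macrophage-like mouse line. These are the 2 libraries with Tnfaip3 in the title, of 4 libraries in the series, with 1 library a side. The ESC were line 46c, grown without feeders and with LIF, and their labels give no treatment. The library called RAW 264.7 has a title that says macrophage with KLA, a lipopolysaccharide-type agonist of the receptor TLR4, while the treatment protocol names peritoneal macrophages alone, so no KLA time is given for it. Cell type and KLA cannot be told apart in this pair. Both were fixed in 1% formaldehyde, cut with HindII and then DpnII, ligated and read out by inverse PCR from the viewpoint. The libraries hold no expression values, so the labelled cell types could not be checked against marker genes.

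Tnfaip3 encodes A20, a ubiquitin-editing enzyme that NF-κB induces and that in turn damps NF-κB signalling, and macrophages raise it after bacterial stimuli. Distal enhancers reach promoters by looping, and 4C-seq reports how often 1 chosen fragment, the viewpoint, is ligated to each other fragment of the same chromosome. The series set out to look at contact between macrophage enhancers that are already marked in ESC and their promoters. In the RefSeq annotation of GRCm38.p6, Tnfaip3 lies on chromosome 10 with Perp, a p53 target of desmosomes, on one side. On its other side lie, in order, Olig3, a neural transcription factor, Ifngr1, a subunit of the interferon gamma receptor, Il22ra2, a soluble receptor that binds interleukin 22, and Il20ra, a receptor subunit of the interleukin 20 family.

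The one element that the labels name is the gene, so its promoter is shown, from RefSeq on GRCm38.p6 (the more upstream of the 2 that the table lists for the gene), chr10:19015361-19015660, minus strand, 5′ to 3′. Capitals mark 2 NF-κB-type motifs, the sequences GGAATTTCC and GGAAATCCC searched on both strands, which do not overlap each other.
Tnfaip3 promoter: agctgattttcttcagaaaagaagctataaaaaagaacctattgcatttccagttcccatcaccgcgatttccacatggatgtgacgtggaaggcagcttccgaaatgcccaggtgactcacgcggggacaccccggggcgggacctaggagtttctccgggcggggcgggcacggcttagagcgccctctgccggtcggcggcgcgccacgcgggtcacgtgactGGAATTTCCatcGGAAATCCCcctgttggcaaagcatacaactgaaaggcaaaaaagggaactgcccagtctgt
The motifs start at bases 227 and 239 of the 300, and 0.636% of 32851 promoters of this length hold either of them. No other NF-κB-type sequence was searched and this promoter holds both, so that share describes these exact strings and tests nothing. No GATC, the letters DpnII cuts, is in this window, against 48% of these promoters that hold one. That build is not the mm9 build of the profiles, so no distance between this promoter and the contacts was taken, and a motif match is a description only.

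The profiles ran over 2001 positions, 1000 bp apart, from 18207921 to 20207921 in mm9 coordinates. Their middle, 19207921, is the reference point for all distances here, since no source used here gives the position of the viewpoint fragment. Contact is the deposited central value in 10 kb windows, divided by the median of the same library over positions 500 to 900 kb from the middle, called the far median. A level of 1 is therefore the far level by construction. As deposited, on a scale where the highest 2 kb window of a library is 1, the far median was 0.136 in ESC and 0.133 in RAW 264.7, so both libraries needed nearly the same division. Read depth is unknown, and no difference below has a replicate error or a test. Positions are not replicates, and neighbouring windows share fragments.

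Contact near the middle was above the far level in both cell types, and more so in ESC. Within 10 kb of the middle the median contact was 1.73 in ESC and 1.51 in RAW 264.7. At 10 to 25 kb it was 1.25 in ESC and 1.29 in RAW 264.7, and at 25 to 50 kb it was 1.28 in both. The levels fell to 1.14 in ESC and 1.18 in RAW 264.7 at 50 to 100 kb. From 200 to 500 kb they were 1.01 and 1.04, close to the far level. The median of ESC was thus the higher one within 10 kb and the lower one in each bin from 50 kb on.

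Contact within 100 kb leaned to the side of higher coordinates in both libraries, though not in every distance bin. Within 10 kb on the lower side the median was 1.58 in ESC and 1.29 in RAW 264.7, against 1.92 and 1.86 on the higher side. At 10 to 25 kb the order of the sides was the opposite in ESC, with 1.37 on the lower side and 1.22 on the higher, and RAW 264.7 had 1.28 and 1.29. At 25 to 50 kb the lower side was at the far level, with 0.944 in ESC and 0.968 in RAW 264.7. The higher side stood at 1.68 in ESC and 1.80 in RAW 264.7 at that distance. At 50 to 100 kb the higher side held 1.24 in ESC and 1.35 in RAW 264.7, against 1.07 and 1.06 on the lower side. Within 100 kb the higher side took 55.4% of the summed contact in ESC and 58% in RAW 264.7. Within 500 kb the shares were 52.2% and 53.4%, nearer to an even split.

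**Figure D1:**
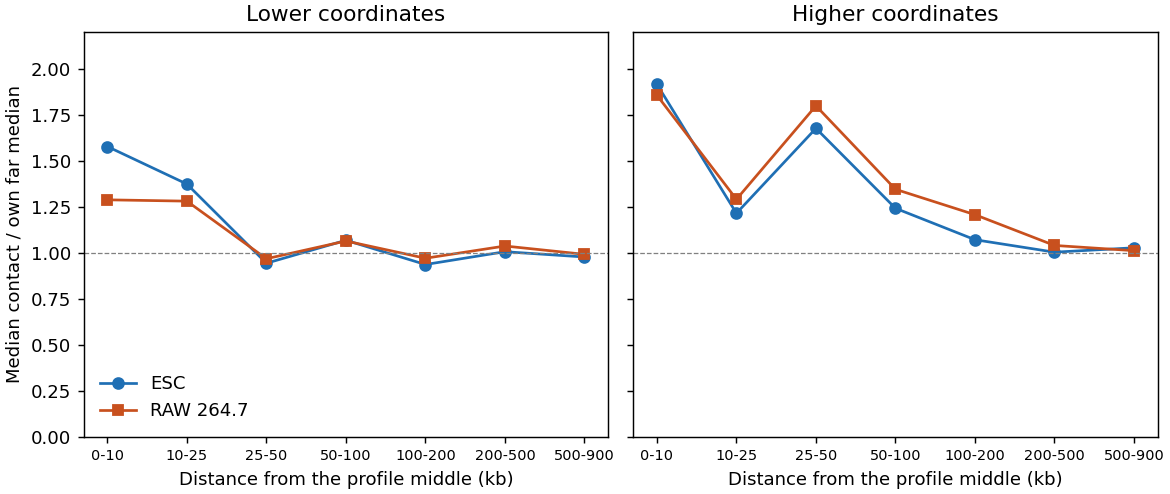
Median contact in 10 kb windows, relative to the library's own median at 500 to 900 kb (y axis), by distance from the profile middle in kb (x axis), for lower (left) and higher (right) coordinates. Points are medians over positions of 1 library each, blue circles ESC and orange squares RAW 264.7; at 0 to 10 kb on the lower side ESC is at 1.58 and RAW 264.7 at 1.29, and on the higher side both stay above 1.2 out to 100 kb.

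Windows of high contact, at 1.5 times the far median or more, were concentrated on the higher side in both cell types. Within 100 kb of the middle ESC had 56 such positions and RAW 264.7 had 53, of 201, with 40 in common, which is 71.4% of the ESC set and 75.5% of the RAW 264.7 set. On the higher side the counts were 42 of 100 in ESC and 51 in RAW 264.7, with 39 in common. On the lower side ESC had 13 and RAW 264.7 had 2, with 1 in common. At 500 to 900 kb, where the scale was set, 4.61% of positions in ESC and 3.12% in RAW 264.7 were as high. Within 100 kb the lower side is thus where high contact in ESC had the lesser counterpart in RAW 264.7. Those 13 ESC positions lay close to the middle, 7 within 10 kb and 6 at 10 to 25 kb. Farther out on the lower side the overlap varied. At 100 to 200 kb each library had 8 such positions, and all 8 were in common. At 200 to 500 kb ESC had 10 and RAW 264.7 had 6, with 1 in common.

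**Figure D2:**
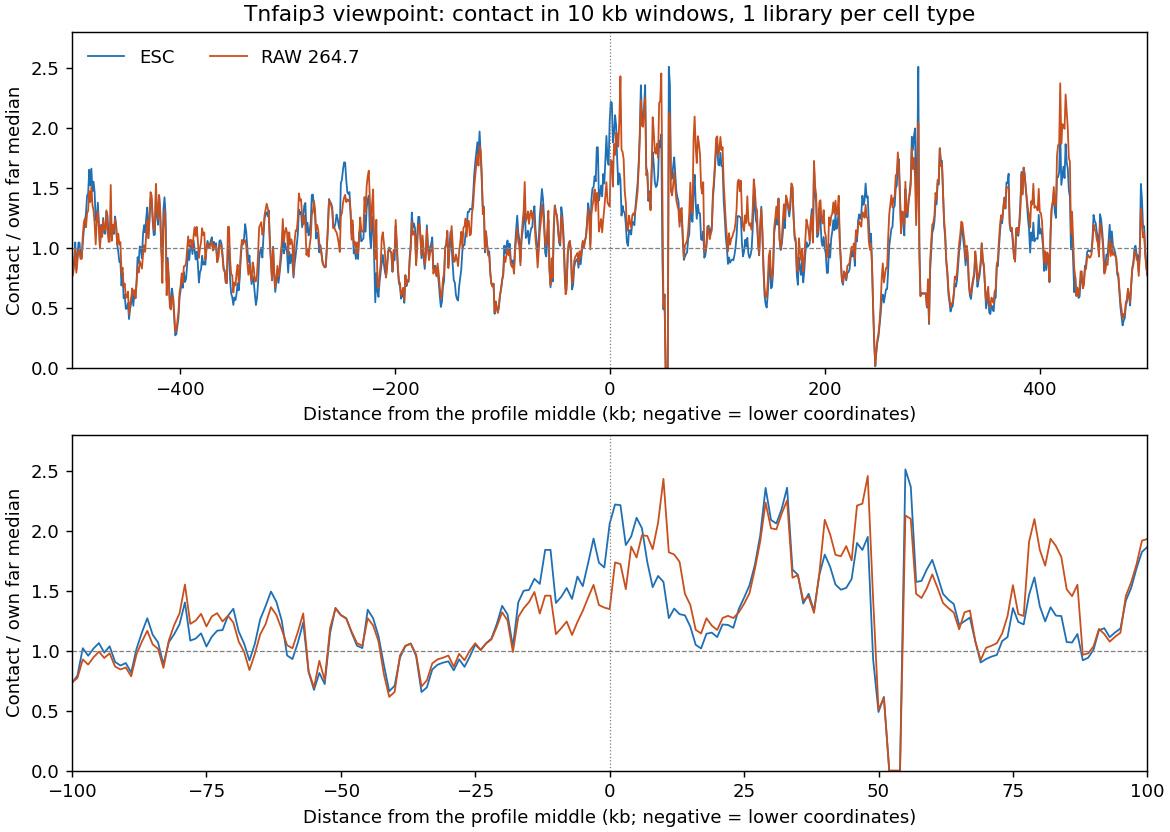
Contact in 10 kb windows relative to the library's far median (y axis) against distance from the profile middle in kb (x axis), out to 500 kb (top) and 100 kb (bottom), for 1 library each of ESC (blue) and RAW 264.7 (orange). The ESC line is higher from 24 kb below to 6 kb above the middle and the RAW 264.7 line from 78 to 87 kb above it; both drop to 0 around 52 kb above the middle, where 3 windows hold no signal in either library.

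The middle itself had more contact in ESC. The 10 kb window centred on 19207921 stood at 2.06 in ESC and 1.35 in RAW 264.7, a log2 ratio of RAW 264.7 over ESC of -0.61, or 1.53-fold in favour of ESC. Its neighbour at 19208921 had 2.22 in ESC and 1.74 in RAW 264.7. Every position from 24 kb below to 6 kb above the middle was higher in ESC, 31 positions in a row with a mean of 1.61 in ESC and 1.37 in RAW 264.7. The mean log2 ratio over this stretch was -0.21. One-sided stretches of this length were not limited to the middle. At 500 to 900 kb the longest in favour of ESC had 38 positions, with a mean log2 ratio of -0.17, and the longest in favour of RAW 264.7 had 85, with 0.14.

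Just above the middle the order turned. At 7 kb above it RAW 264.7 was higher, with 1.96 against 1.74 in ESC, and at 19217921, 10 kb above, it had 2.43 against 1.57, a log2 ratio of 0.63. The stretch from 19217921 to 19220921 had a mean of 1.95 in RAW 264.7 and 1.38 in ESC, a log2 ratio of 0.49. This ratio depended on the window width, with 0.10 in windows of 2 kb, 0.34 in 5 kb, 0.0017 in 20 kb and -0.12 in 49 kb. By 29 kb above the middle, at 19236921, the libraries were together again, with 2.36 in ESC and 2.23 in RAW 264.7. That position holds the highest 2 kb window of the RAW 264.7 library, where ESC had 0.987 on the deposited scale. The highest 2 kb window of ESC was at 19124921, 83 kb below the middle, where RAW 264.7 had 0.671. The turn 7 kb above the middle is thus a description of the 10 kb windows.

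Of the 2 kb windows within 10 kb of the middle, 3 were at least 2-fold higher in ESC. On the deposited scale the window at 19208921, 1 kb above the middle, had 0.539 in ESC and 0.191 in RAW 264.7. The next, at 19209921, had 0.426 in ESC and 0.146 in RAW 264.7. The window at 19199921, 8 kb below, had 0.352 in ESC and 0.116 in RAW 264.7. After division by the far median these are 2.65-fold, 2.75-fold and 2.86-fold in favour of ESC. The window centred on the middle had 0.170 in ESC and 0.165 in RAW 264.7, so the excess did not cover every window there. Of 19 windows of 2 kb with signal within 10 kb of the middle, 15.8% were at least 2-fold higher in ESC and 0% in RAW 264.7. Within 100 kb the shares were 1.65% in each direction, of 182 windows. At 500 to 900 kb they were 0.925% for ESC and 1.19% for RAW 264.7, of 757 windows.

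Counted in 10 kb windows at 1.3-fold or more, positions with higher contact in RAW 264.7 outnumbered those with higher contact in ESC within 100 kb, within 500 kb and at 500 to 900 kb, but not within 10 kb. Within 10 kb of the middle 2 of 21 positions were higher in ESC, 9.52%, and 1 in RAW 264.7, 4.76%. Within 100 kb the counts were 15 of 198 in favour of RAW 264.7, 7.58%, and 2 in favour of ESC, 1.01%. Within 500 kb they were 34 of 998 in favour of RAW 264.7, 3.41%, and 2 in favour of ESC, 0.2%. The background at 500 to 900 kb was 26 of 802, 3.24%, and 11, 1.37%, and over the whole profile of 1988 positions it was 3.02% and 0.805%. The share within 500 kb in favour of RAW 264.7 is therefore at the background, and within 100 kb it is above it. These shares rest on few stretches of overlapping windows. The 15 positions within 100 kb lay 10 to 13 kb, 49 kb and 78 to 87 kb above the middle. Of the 26 positions at 500 to 900 kb, 13 were 1 stretch. The 2 positions in favour of ESC are those at 19201921 and at the middle.

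**Figure D3:**
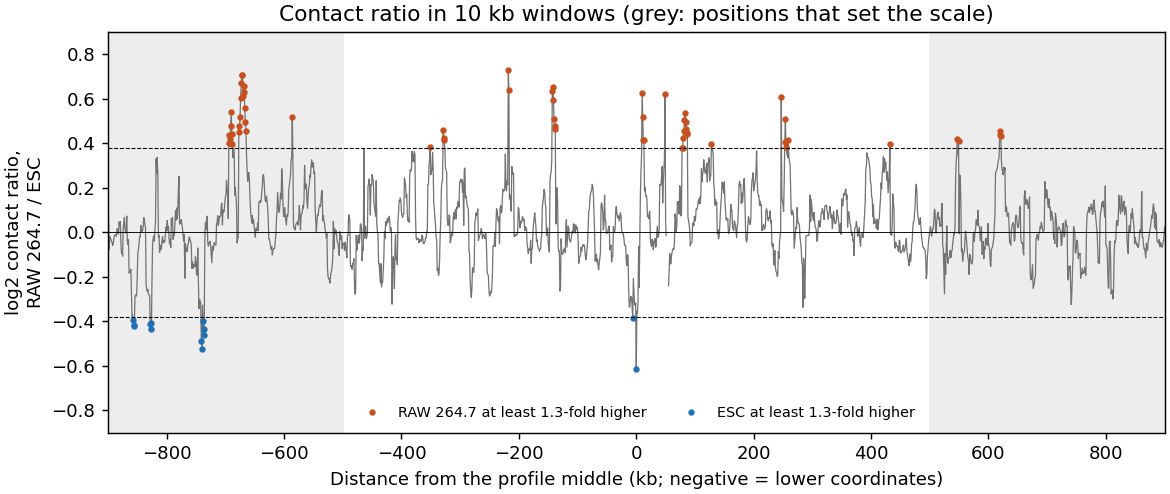
Log2 contact ratio of RAW 264.7 over ESC in 10 kb windows (y axis) against distance from the profile middle in kb (x axis), with dashed lines at 1.3-fold and grey areas for the positions at 500 to 900 kb that set the scale. Orange points, 34 within 500 kb, are at least 1.3-fold higher in RAW 264.7 and blue points, 2 within 500 kb, in ESC; both also occur in the grey areas, 26 orange and 11 blue.

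The longest stretch at 1.3-fold or more in favour of RAW 264.7 within 500 kb lay on the higher side, 78 to 87 kb from the middle. From 19285921 to 19294921, 10 positions in a row, mean contact was 1.77 in RAW 264.7 and 1.29 in ESC, a log2 ratio of 0.45. RAW 264.7 ranged from 1.46 to 2.10 and ESC from 1.07 to 1.61 in this stretch, so the ranges overlap. In windows of 2 kb the excess sat at 19290921, with a deposited value of 0.665 in RAW 264.7 and 0.194 in ESC, and at 19289921, with 0.377 and 0.166. At 19287921, the order was not the same, with 0.283 in RAW 264.7 and 0.340 in ESC. The bounds that the authors deposited with each window ran on average from 0.0179 to 1.79 in RAW 264.7 and from 0.0195 to 1.101 in ESC, on the deposited scale. They overlap, as they did in every other stretch at 1.3-fold or more, so the overlap does not set this stretch apart.

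On the lower side within 500 kb the longest stretch at 1.3-fold or more in favour of RAW 264.7 was one of low contact. From 19064921 to 19069921, 6 positions that end 138 kb below the middle, contact was 0.976 in RAW 264.7 and 0.668 in ESC, a log2 ratio of 0.56. RAW 264.7 was there at the far level and ESC below it. Shorter stretches of the same kind lay 327 to 329 kb below, with 0.816 in RAW 264.7 and 0.605 in ESC, and 253 to 255 kb above, with 0.781 and 0.577. No stretch of 3 or more positions within 500 kb was 1.3-fold higher in ESC, against 3 such stretches at 500 to 900 kb. In favour of RAW 264.7 there were 5 within 500 kb and 3 at 500 to 900 kb, the longest of which had 13 positions.

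A small and wide difference ran along the higher side. At 100 to 200 kb above the middle 92 of 100 positions were higher in RAW 264.7, with medians of 1.21 in RAW 264.7 and 1.07 in ESC and a median log2 ratio of 0.13. At the same distance below the middle 53 of 100 were, with medians of 0.971 and 0.937. In segments of 50 kb the median ratio favoured RAW 264.7 in 9 of 10 segments on the higher side within 500 kb and in 6 of 10 on the lower side. At 500 to 900 kb it did so in 10 of 16. The highest segment ratio within 500 kb was 0.21, at 100 to 150 kb above, and the highest at 500 to 900 kb was 0.28, at 650 to 700 kb below the middle. Differences of this size therefore also occurred where the scale was set.

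The named differences were smaller in windows of 49 kb than of 10 kb. Each window width from 2 to 30 kb, 29 in all, was compared. At the middle ESC was higher in 28 of 29 widths, and by 1.3-fold or more in 9 of them. Its log2 ratio was -0.64 in windows of 5 kb, -0.61 in 10 kb, -0.28 in 20 kb and -0.14 in 49 kb. At 19289921, 82 kb above, RAW 264.7 was higher in 29 of 29 widths and by 1.3-fold or more in 11, with 1.27 in windows of 2 kb, 0.51 in 10 kb and 0.11 in 49 kb. At 19066921, 141 kb below, it was higher in all 29 and by 1.3-fold or more in 12. At 19218921, 11 kb above, RAW 264.7 was higher in 19 widths and ESC in 10, and the log2 ratio went from 0.52 in windows of 10 kb to -0.14 in 49 kb.

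**Figure D4:**
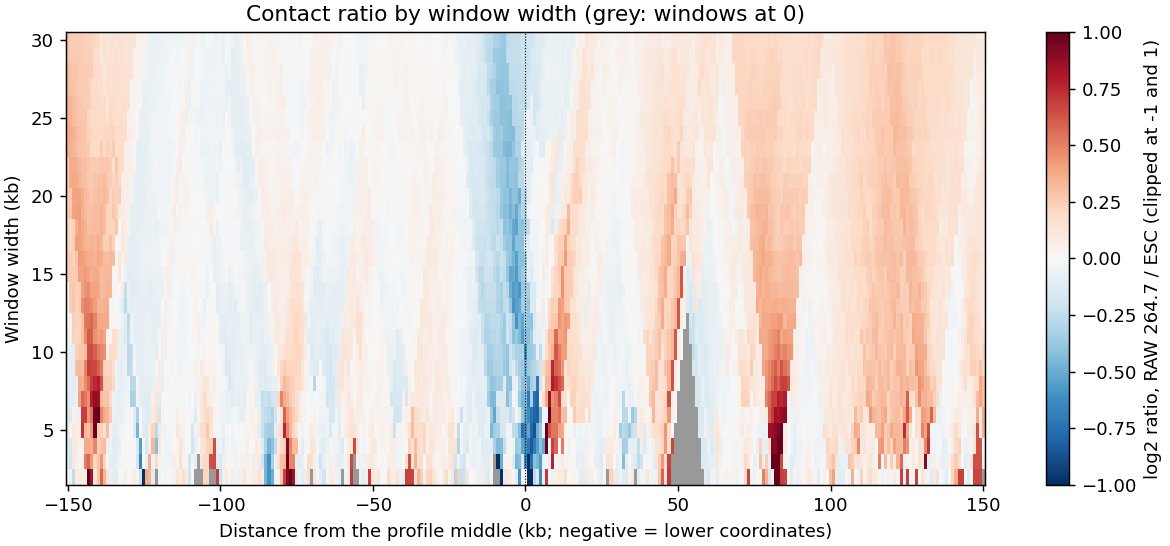
Log2 contact ratio of RAW 264.7 over ESC (colour, clipped at -1 and 1; red higher in RAW 264.7, blue higher in ESC) by distance from the profile middle in kb (x axis) and window width from 2 to 30 kb (y axis), with windows at 0 in grey. A blue wedge rises from the middle, with -0.61 in windows of 10 kb there, and a red one from 82 kb above it, with 0.51; windows of growing width share fragments, so a wedge is not repeated evidence.

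Local maxima of contact were in part at the same places in both cell types. At 1.5 times the far median and 20 kb apart, each library had 16 within 500 kb, and 9 of those in ESC had one in RAW 264.7 within 5 kb, which leaves 7 in each library without a match. At 2 times the far median ESC had 4 and RAW 264.7 had 5, with 1 in common. A maximum without a match was not always low in the other library, because of the 20 kb rule. RAW 264.7 had 2.13 at 19262921 and 2.25 at 19240921, both less than 20 kb from its higher maximum at 19255921. It had 1.74 at 19208921 and 1.51 at 18725921, also less than 20 kb from higher RAW 264.7 maxima. At the other unmatched ESC maxima, 18960921, 19445921 and 19701921, RAW 264.7 was below 1.5. On the higher side lay 13 of the 16 in ESC and 11 of the 16 in RAW 264.7. The highest in ESC was at 19494921, 287 kb above the middle, with 2.51 in ESC and 2.05 in RAW 264.7. The next was at 19262921, 55 kb above, with 2.51 and 2.13. At both of these the windows of 5 kb were at 0 in both libraries, so their height came from the edges of the 10 kb window. At 19240921, 33 kb above, contact was 2.36 in ESC and 2.25 in RAW 264.7.

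The RAW 264.7 library had its own order. Its highest maximum was at 19255921, 48 kb above the middle, with 2.46 in RAW 264.7 and 1.95 in ESC. In windows of 5 kb that position had 0.654 in RAW 264.7 and 0.645 in ESC, both below the far level. Its 2 kb window was at 0 in both libraries, so here too the height came from the edges of the 10 kb window. In windows of 20 kb it had 1.85 in RAW 264.7 and 1.49 in ESC. The one at 19217921 came next, with the 2.43 and 1.57 given above. At 19626921, 419 kb above, contact was 2.37 in RAW 264.7 and 1.98 in ESC. At 19286921, 79 kb above, it was 2.10 in RAW 264.7 and 1.61 in ESC. The 4 highest maxima of RAW 264.7 were all higher there than in ESC and the 4 highest of ESC were all higher in ESC, a direction that the choice by height favours. Those at rank 5 went the other way. In ESC it was 19626921, with 1.98 in ESC and 2.37 in RAW 264.7. In RAW 264.7 it was 19494921, with 2.51 in ESC and 2.05 in RAW 264.7. In windows of 49 kb 3 of the 4 highest ESC maxima were higher in RAW 264.7. There 19494921 had 1.41 in ESC and 1.44 in RAW 264.7, 19262921 had 1.44 and 1.53, and 19240921 had 1.44 and 1.54. At 19262921 this was already so in windows of 20 kb, with 1.35 in ESC and 1.45 in RAW 264.7. Of the 4 highest RAW 264.7 maxima, 19217921 was higher in ESC in windows of 49 kb, with 1.62 in ESC and 1.47 in RAW 264.7. At 19286921 this was so in windows of 5 kb, with 1.58 and 1.53.

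Much of the fine structure was the same in both libraries. Of the 2 kb windows 148 were at 0, and these were the same positions in both. In the other 1851, the RAW 264.7 values piled up in one narrow range: 298 windows, 16.1%, had a deposited value of 0.27 to 0.29. In ESC the fullest range of that width above 0.2 was 0.29 to 0.31, with 114 windows, 6.16%. Exact pairs of values also recurred at separate places. The windows at 19200921, 19225921 and 19232921 each had 0.323 in ESC and 0.280 in RAW 264.7. Windows above 0.4 numbered 15 in ESC and 10 in RAW 264.7. Far from the middle, at 500 to 900 kb, 78.7% of 2 kb windows had a ratio within 1.2-fold of the median ratio, against 85.3% at 10 to 100 kb and 63.2% of the 19 within 10 kb. The part of the restriction-fragment layout and of the recurring values in this shared structure was not tested.

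**Figure D5:**
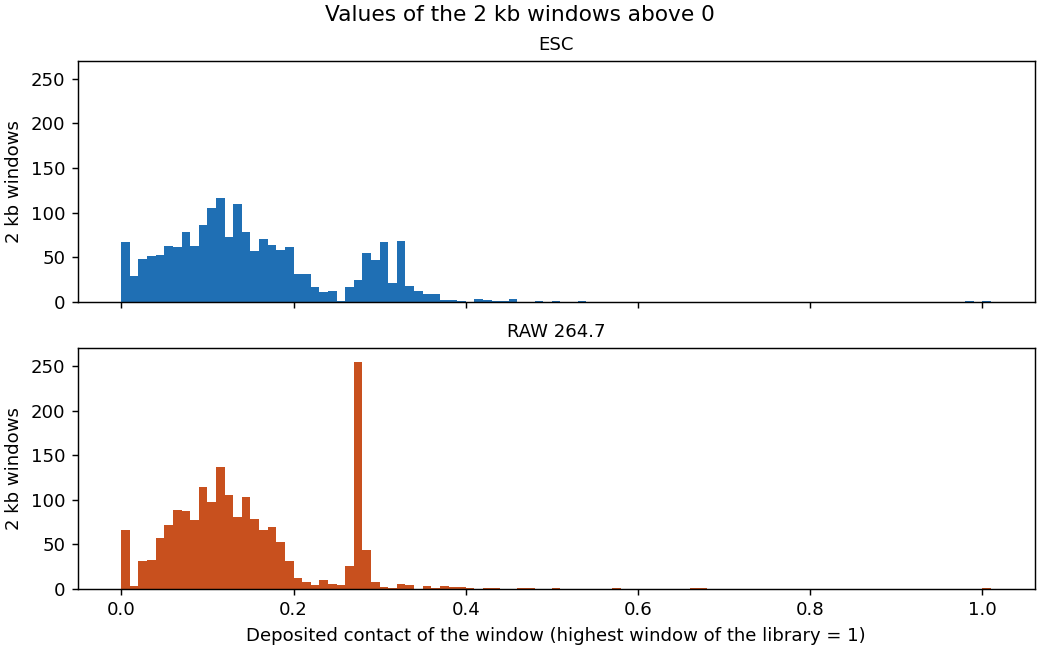
Number of 2 kb windows above 0 (y axis) by deposited contact, on a scale where the highest window of the library is 1 (x axis, bins of 0.01), for ESC (top) and RAW 264.7 (bottom). RAW 264.7 has a narrow pile of 298 windows from 0.27 to 0.29, and in ESC the fullest such range above 0.2 holds 114, from 0.29 to 0.31.

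The ratio varied most among positions in the nearest 10 kb. The standard deviation of the log2 ratio across positions was 0.20 within 100 kb and 0.17 at 500 to 900 kb, and within 10 kb it was 0.29. By side, within 10 kb, it was 0.048 on the lower side and 0.34 on the higher side. The median log2 ratio was 0.0014 within 100 kb and -0.29 within 10 kb. For the Il1a viewpoint of the same series, with peritoneal macrophages given KLA for 1 h in place of RAW 264.7, the values were 0.21 within 100 kb and 0.11 at 500 to 900 kb. There the median within 10 kb was 0.20, in favour of the macrophages, with contact of 2.03 in ESC and 2.43 in macrophages. Within 100 kb 5.53% of Il1a positions were 1.3-fold higher in macrophages and 4.02% in ESC, against 0.249% and 0% at 500 to 900 kb. The far windows of the Tnfaip3 pair thus crossed 1.3-fold more often than those of the Il1a pair, and the Tnfaip3 counts near the middle stand against a higher background. The 2 pairs differ in viewpoint and in the macrophage source, and the difference between them was not tested.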

How the data were processed

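The deposited signal profiles of 4 libraries were used, 2 of them for Tnfaip3. CASAVA 1.4, Bowtie2 2.0.1 and the build mm9 come from the submitters' processing notes, which give them no role; no source used here names the smoothing program. Each file has 145 columns without a header. By their missing entries, which grow with width towards both ends, they were read as a position and 48 window widths of 2 to 49 kb with 3 columns each. These are a central signal and an upper bound, and a lower bound, a deposited score that can fall slightly below 0. The authors' values are relative to the highest 2 kb window of the library, so they carry no depth.

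Each library was divided by its own median at 500 to 900 kb from the profile middle; log2 ratios were taken with no pseudocount, leaving out windows at 0. Named regions were the 5 highest local maxima of each library, runs of at least 3 positions at 1.3-fold, and the middle; single 2 kb windows and one-sided stretches were added after their values were seen. Members, lists and thresholds were chosen with earlier results of these data known. With 1 library per group there was no test and no p-value. The calculations used Python 3.11.15, NumPy 2.4.6 and Matplotlib 3.10.9 and were tested on simulated data.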

Additional observations from a re-analysis of the deposited data

How the results depend on the processing

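Of 184 values recomputed under other settings, 131 kept within their tolerance (0.17 on the log2 scale, 5 percentage points for side shares and 1.5 times for counts and spreads); the cause was not tested for the others, except where fewer windows, another threshold or another reference point changes what is counted. The side shares within 500 kb and the median ratio within 100 kb kept within theirs in every alternative run. For the shares this tolerance is wider than their distance from an even split, so keeping within it says little. Their lowest values were 51.1% in ESC and 52.1% in RAW 264.7, with distance from the highest averaged 2 kb window. The median ratio changed sign in some settings, with -0.031 as deposited. The shares within 100 kb were not recomputed. Windows of 5 kb gave a median contact within 10 kb of the middle of 1.51 in ESC and 1.26 in RAW 264.7, and 1.13 in ESC at 25 to 50 kb. Windows of 49 kb gave 1.496 in ESC within 10 kb, 1.45 in ESC at 10 to 25 kb, and spreads of the log2 ratio of 0.10 within 100 kb and 0.11 at 500 to 900 kb. With distance from the highest averaged 2 kb window, contact at 10 to 25 kb was 1.52 in ESC and 1.79 in RAW 264.7, and at 25 to 50 kb 1.49 in ESC. The length at least 1.3-fold higher in RAW 264.7 within 500 kb, 34 kb, became 57 kb in windows of 5 kb, 10 kb in 20 kb and 0 kb in 49 kb, 107 kb at 1.2-fold, 8 kb at 1.5-fold and 0 kb at 2-fold, and 20 kb where RAW 264.7 had to be at its far median or above. The length higher in ESC, 2 kb, became 13 kb in windows of 5 kb, 6 kb in 20 kb, 0 kb in 49 kb, 4 kb as deposited, 1 kb with a pseudocount of 10%, 26 kb at 1.2-fold, 1 kb at 1.5-fold, 0 kb at 2-fold and 10 kb from positions taken 10 kb apart. The local maxima, 16 in each library with 9 shared, became 27 in ESC and 28 in RAW 264.7 with 21 shared in windows of 5 kb, 6 and 7 with 5 shared in 20 kb, and 3 and 3 with 2 shared in 49 kb. At 2 times the far median there were 4 in ESC and 5 in RAW 264.7 with 1 shared. At 1.3 times there were 24 in ESC and 26 in RAW 264.7 with 18 shared. With maxima 10 kb apart there were 19 in ESC and 23 in RAW 264.7 with 15 shared. Of the ratios over named stretches and at the middle, 1 reversed: 19217921 to 19220921 had 0.49 in windows of 10 kb and -0.12 in 49 kb, while 11 other values moved without a change of sign; the turns at single maxima are given with the maxima. No replicate could be left out and no pairing was possible because each group held 1 library, and read depth is unknown.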

Other observations

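At 500 to 900 kb from the middle, where the far median was taken, the longest stretch at 1.3-fold or more in favour of RAW 264.7 lay on the lower side. From 18530921 to 18542921, 665 to 677 kb below the middle, 13 positions in a row had a mean contact of 1.72 in RAW 264.7 and 1.14 in ESC, a log2 ratio of 0.58, larger than at 78 to 87 kb above the middle. It was 0.53 in windows of 2 kb, 0.62 in 5 kb, 0.47 in 20 kb and 0.30 in 49 kb. In the 2 kb window at 18535921 the deposited values were 0.375 in RAW 264.7 and 0.138 in ESC. A second stretch, from 18513921 to 18519921, had 1.17 in RAW 264.7 and 0.860 in ESC. The 50 kb segment that spans both, 650 to 700 kb below, had RAW 264.7 higher at 47 of 50 positions.

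In favour of ESC, the stretches at 1.3-fold or more at 500 to 900 kb also lay on the lower side, and their positions number 11 there and 0 on the higher side. Without that threshold ESC was higher at 193 of 401 positions on the higher side and at 171 of 401 on the lower side. From 18466921 to 18467921, 740 to 741 kb below, contact was 1.69 in ESC and 1.19 in RAW 264.7. From 18379921 to 18381921, 826 to 828 kb below, it was 1.63 in ESC and 1.22 in RAW 264.7. The 2 kb window at 19882921, 675 kb above the middle, had 0.482 in ESC and 0.124 in RAW 264.7, which is 3.64-fold after division by the far median and more than at any of the 3 windows near the middle. These values were picked after they were seen and come from 1 library a side.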
